A study of Mus musculus with 47 samples.

Results

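The carboxylesterases *Ces1c*, *Ces1d*, *Ces1e*, *Ces1f*, *Ces1g*, *Ces2a*, *Ces2c*, *Ces2e*, *Ces3a* and *Ces3b* were followed across 8 groups of mouse liver. These 10 genes were taken by symbol from the array annotation, where each has 1 probe. All 10 probes were well above background on every one of the 47 arrays and saturated on none, and all 10 were among the 21873 genes tested. Hepatic mRNA of 47 mice was measured, 1 array per mouse, in males and females of both *Pxr* genotypes, given antibiotics (ATB) or not (control). There were 6 mice in every group but that of *Pxr*-/- control males, with 5. *Pxr*+/+ and *Pxr*-/- mice were littermates from heterozygous C57BL/6J breeders, split by genotype and sex (at 5 weeks, per the labels), and the knockout is of the whole body and not of the liver alone. The methods give an age of 6 months and 2 cages per group, and the cage of each mouse is not known here. For 2 weeks, ATB groups had vancomycin at 0.5 g/L in their drinking water, together with ampicillin and neomycin at 1 g/L each. All mice were killed at ZT6, that is 6 h after lights on.

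Carboxylesterases are serine hydrolases that cleave esters, thioesters and amides. Most sit in the lumen of the endoplasmic reticulum of liver and intestine, where they hydrolyse ester drugs and take part in the turnover of triacylglycerol and cholesteryl ester. In the mouse the genes lie in tandem arrays, grouped by sequence into Ces1, Ces2 and Ces3 families. PXR (encoded by *Nr1i2*) is a nuclear receptor that binds drugs, bile acids and microbial metabolites and controls genes of xenobiotic processing.

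All 10 probes lie on chromosome 8 (mm9, as the array annotation gives it). The Ces1 probes lie on the minus strand, from *Ces1c* at chr8:95624607-95628058, which spans an exon junction, to *Ces1g* at chr8:95826722-95826781. The Ces2 and Ces3 probes lie on the plus strand, from *Ces2a* at chr8:107263207-107263266 through *Ces2c* at chr8:107378258-107378317 to *Ces3b* at chr8:107615484-107615543. Since these genes arose by duplication, each probe was set against those of the other carboxylesterases on the array, 22 probes in all. Among 227 pairs of probes of different genes, 1 pair, *Ces2b* with *Ces2c*, shared a run of 15 or more bases. Their aligned ends overlap by 34 bases, of which 31 are identical, and a stretch of 30 with 2 of the 3 differing bases, in capitals, is shown because both transcripts could bind either probe.
Ces2b: gcatTtgtcacctcagtctttgagctttcC
Ces2c: gcatCtgtcacctcagtctttgagctttcA
The probes of *Ces1b* and *Ces1c* overlapped by 55 bases, of which 49 are identical, and are shown for the same reason, again with the differing bases in capitals.
Ces1b: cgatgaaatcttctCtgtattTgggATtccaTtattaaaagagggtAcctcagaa
Ces1c: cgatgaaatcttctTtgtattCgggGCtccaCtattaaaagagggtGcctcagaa
The signals of *Ces2c* and *Ces1c* are therefore uncertain to the extent that the partner transcript also bound.

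The values are log2 signals, normalized between arrays. They compare one gene between groups and not one gene with another. A gene was called when limma's adjusted p was 0.05 or less and the fold change above 1.2. Across arrays, the 75th percentile of the signal over gene probes lay between 306 and 492.5, against a background of 15 to 21. Slides (6) were washed in 3 batches that held all groups, apart from 1 slide without a male *Pxr*-/- control. *Nr1i2* itself had group medians of 11.59 to 12.03 in *Pxr*+/+ mice and of 11.15 to 11.71 in *Pxr*-/- mice, and its differences between genotypes, from -0.57 to -0.28, did not pass the test. Where its probe lies relative to the deleted part is not known here, so it checks the labels neither way. *Cyp2c55*, a cytochrome P450 and known PXR target, separated the genotypes in every mouse. It was higher in *Pxr*-/- mice, by 2.36 and 3.37 in control and ATB males and by 2.43 and 3.03 in control and ATB females. *Cyp3a11*, a known PXR target, differed by 0.56, 2.40, 0.43 and 0.51 in control males, ATB males, control females and ATB females, and passed in ATB males. *Slco1a4*, a hepatic uptake transporter and PXR target, was lower in *Pxr*-/- males (-2.92 in control and -2.21 in ATB mice), while in females it differed by -0.50 and -0.06 and did not pass. Summed signals of the 11 tested hepatocyte markers had group medians between 21.10 and 21.24 on the log2 scale. Of 8 markers of gut epithelium, 2 were tested, and their summed signals had group medians between 13.53 and 14.30. *Lct*, *Cdx1* and *Muc2* of the same list were not well above background on any array. In whole liver, fewer cells of a type and less RNA per cell cannot be told apart.

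The first comparison asked how the carboxylesterases differed without PXR. *Ces2a*, a Ces2 member also known as Ces6, was higher in *Pxr*-/- than in *Pxr*+/+ mice in both sexes, with and without ATB, and it was the only one of the 10 members that passed this test in any of the 4 comparisons. In control males, its log2 signal was 12.07 at the lowest, 12.44 at the median and 12.55 at the highest in *Pxr*+/+ mice. The 5 *Pxr*-/- control males stood at 12.86, 12.89, 12.94, 12.94 and 13.17. All of the latter lay above all of the former, a rise of 0.59 ± 0.11 (SE) or 1.51-fold (adjusted p = 0.00208). In ATB males, the lowest, median and highest signals were 11.81, 11.89 and 11.97 in *Pxr*+/+ and 12.62, 12.73 and 12.92 in *Pxr*-/- mice. The groups again did not overlap, and the rise was 0.85 ± 0.10 or 1.81-fold (adjusted p = 3.53e-07).

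In control females, *Ces2a* was at 11.66, 12.00 and 12.27 (lowest, median and highest) in *Pxr*+/+ mice and at 12.26, 12.84 and 12.98 in *Pxr*-/- mice. Of the 6 *Pxr*-/- females, 5 lay above every *Pxr*+/+ female and 1, replicate 1, lay within their range. The rise was 0.77 ± 0.10 or 1.70-fold (adjusted p = 7.61e-06), and 0.87 without that mouse. In ATB females, *Ces2a* was at 11.20, 11.43 and 11.78 in *Pxr*+/+ mice and at 12.71, 12.82 and 12.92 in *Pxr*-/- mice. Here the gap between genotypes was wide in every mouse, a rise of 1.37 ± 0.10 or 2.59-fold (adjusted p = 2.38e-12). Within each of the 3 wash batches the rise was between 0.40 and 0.82 in control males, 0.83 and 0.93 in ATB males, 0.59 and 0.81 in control females and 1.2 and 1.65 in ATB females. In control females, 7 of 12 macrophage markers and 4 of 8 endothelial markers were called lower in *Pxr*-/- mice, against 3.04% of all genes. Of the tested lymphocyte, stellate cell, cholangiocyte and hepatocyte markers, 0 were called lower. The summed macrophage markers lay between 15.19 and 16.18 in *Pxr*+/+ and between 14.43 and 14.99 in *Pxr*-/- control females, and their part in the *Ces2a* difference was not tested.

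Against this single member in each comparison, 0.155% of all genes were called higher in *Pxr*-/- control males, 0.315% in ATB males, 0.21% in control females and 0.16% in ATB females. No member was called lower, where 0.032%, 0.622%, 3.04% and 0.0457% of all genes were. The split of all calls depended on the scaling: 33.7% were higher in ATB males and 6.5% in control females, but 83.3% and 41.8% after quantile normalization. The median of all probes was shifted by -0.13 and -0.11 in those 2 comparisons, and the *Ces2a* differences above are not corrected for it. Over the 11 alternatives they ranged from 0.85 to 1.04 in ATB males and from 0.77 to 0.90 in control females. The median member differed by 0.14, 0.06, 0.12 and 0.30 in control males, ATB males, control females and ATB females, and the median of all genes by -0.04, -0.13, -0.12 and -0.00.

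**Figure D1:**
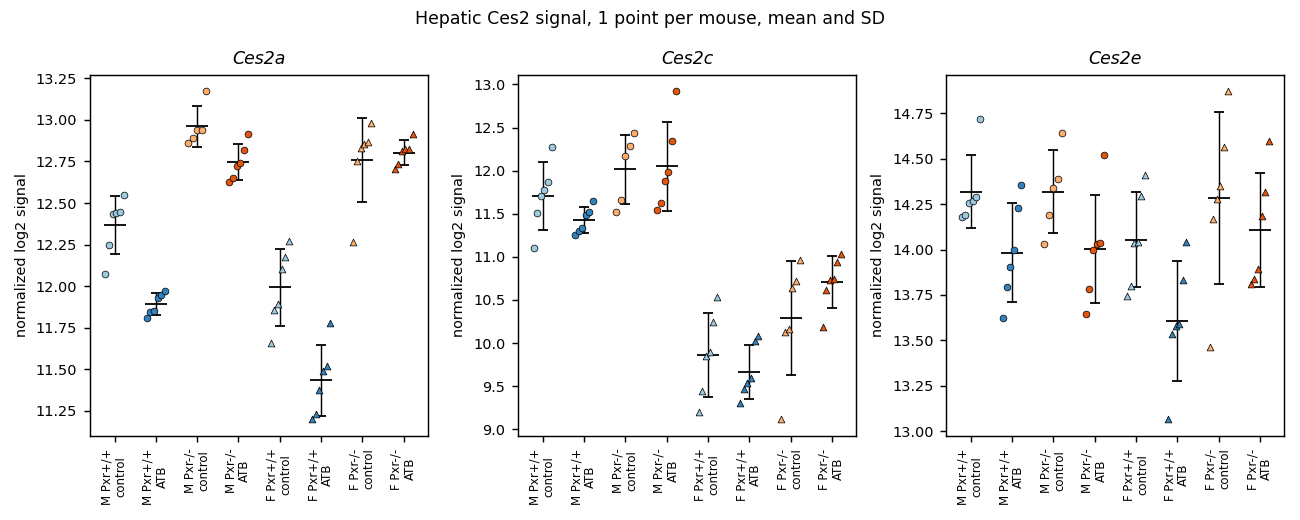
Normalized log2 signal of *Ces2a*, *Ces2c* and *Ces2e* in each mouse of the 8 groups (circles, males; triangles, females), with mean and SD as bars, n = 6 or 5 mice. *Ces2a* is higher in *Pxr*-/- than in *Pxr*+/+ mice in each pair of groups, and *Ces2c* is higher in all males than in all females.

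The order of the *Ces2a* group means followed genotype first. *Pxr*-/- control males had the highest mean, 12.96, followed by *Pxr*-/- ATB females (12.80), *Pxr*-/- control females (12.76) and *Pxr*-/- ATB males (12.75). The last 3 did not differ beyond their SDs. Below them came *Pxr*+/+ control males (12.37), then *Pxr*+/+ control females (11.99) and ATB males (11.89), which did not differ beyond their SDs, and *Pxr*+/+ ATB females (11.43).

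The other Ces2 members did not pass the test for PXR loss. *Ces2c*, a hydrolase of long-chain acylcarnitines, was at 9.30, 9.57 and 10.08 (lowest, median and highest) in *Pxr*+/+ ATB females and at 10.19, 10.74 and 11.03 in *Pxr*-/- ATB females. These groups did not overlap, but the difference of 1.04 ± 0.24 had an adjusted p of 0.0525. It passed under 7 of 11 alternative settings, with adjusted p between 0.0245 and 0.192. The setting named any probe repeats the main fit, as each member has 1 probe, so it could not pass. In the other 3 comparisons *Ces2c* differed by 0.31 (control males), 0.63 (ATB males) and 0.43 (control females), with adjusted p of 0.997, 0.14 and 0.295. *Ces2e* differed by 0.00, 0.02, 0.23 and 0.50 in control males, ATB males, control females and ATB females, with adjusted p of 0.452 or more.

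Among the Ces1 and Ces3 members, *Ces1d*, also known as triacylglycerol hydrolase, differed between genotypes by 0.44, 0.35, 0.25 and 0.57 in the same order, and none passed. In ATB females its groups did not overlap (adjusted p = 0.532). With *Ces2a* and *Ces2c* this made 3 members without overlap in ATB females, against 0.361% of all genes on the higher side. In control males, ATB males and control females, 1, 1 and 0 members lay apart in this way, against 0.334%, 0.306% and 0.114% of all genes. Differences of the remaining members ranged from -0.31 (*Ces3b* in control females, adjusted p = 0.136) to 0.31 (*Ces1e* in ATB females).

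The region before the start of *Ces2a* is shown because its signal moved with *Pxr* genotype, and that of *Ces2c* because it did not pass the same test. Both are from RefSeq (GRCm38.p6, plus strand, 250 bases upstream of the annotated start), and a promoter was listed for 7 of the 10 members. AGGTCA, the half-site of many nuclear receptors, and CCAAT are in capitals, on either strand.
Ces2a, chr8:104733753-104734002: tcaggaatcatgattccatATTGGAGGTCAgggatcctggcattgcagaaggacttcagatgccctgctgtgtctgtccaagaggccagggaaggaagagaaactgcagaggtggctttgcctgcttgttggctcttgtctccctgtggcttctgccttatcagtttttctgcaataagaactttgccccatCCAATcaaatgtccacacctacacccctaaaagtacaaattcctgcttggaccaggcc
Ces2c, chr8:104846818-104847067: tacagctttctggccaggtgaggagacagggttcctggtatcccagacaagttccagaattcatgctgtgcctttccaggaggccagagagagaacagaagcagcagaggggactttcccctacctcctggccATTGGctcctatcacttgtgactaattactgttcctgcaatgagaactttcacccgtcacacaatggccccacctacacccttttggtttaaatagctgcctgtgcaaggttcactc
*Ces2a* has 1 AGGTCA, 226 bases before its start and next to a CCAAT on the minus strand at 231 bases, and a further CCAAT at 58 bases. *Ces2c* has 1 CCAAT, on the minus strand at 117 bases. The other half-site searched, AGTTCA, and the letters TATAAA are in neither window on either strand. AGGTCA occurs in 14.02%, AGTTCA in 11.8%, CCAAT in 33.9% and TATAAA in 12.4% of the 32851 windows of this length. Of 16 windows of carboxylesterase genes, 3, 4, 10 and 3 hold them. AGGTCA is in those of *Ces2a*, *Ces2h* and *Ces4a*. *Ces4a* differed between genotypes by 0.01 to 0.24 and was not called for genotype in any comparison. Its probe was well above background in only 1 or 2 of the 6 females of each group, so a difference in females may not show. *Ces2h* was not well above background on any array. A part of these letters in the signals was not tested.

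The second comparison asked how ATB changed the carboxylesterases. *Ces2a* fell with ATB in *Pxr*+/+ mice of both sexes and was the only member called. In *Pxr*+/+ males, all 6 ATB mice (11.81 to 11.97) lay below all 6 control mice (12.07 to 12.55), as did 0.251% of all genes. It decreased by 0.48 on the log2 scale (SE 0.10, adjusted p = 0.0119), where 0.165% of all genes were called lower and 0.873% higher. That split, with 84.1% of calls higher, was 32.1% higher after quantile normalization, under which *Ces1f* also passed (-0.38, adjusted p = 0.0422). In *Pxr*+/+ females, 5 of the 6 ATB mice lay below all control mice (0.256% of all genes did so in all 6), and *Ces2a* decreased by 0.56 (SE 0.10, adjusted p = 0.0236). Few genes passed in these females, 0.0137% lower and 0 higher. The 3 were *Ces2a*, *Csad* (-2.48) and *Mypop* (-0.54), the last 2 named after their values were seen.

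The call in females was lost with the replicate number as a block (adjusted p = 0.0514) and with only these groups in the model (0.549). It was also lost when any of 6 mice was left out, namely control replicates 3, 5 and 6 and ATB replicates 2, 4 and 5, with adjusted p of 0.0989 to 0.207 and differences from -0.55 to -0.50. Within the 3 wash batches, the difference in females was -0.33, -0.80 and -0.78, and in males -0.47, -0.59 and -0.27.

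No member was called for ATB in *Pxr*-/- mice by limma, where 0.0503% and 0.0594% of all genes were called higher and lower in males and 0.0229% and 0.00457% in females. At an unadjusted p under 0.05, limma gave 2 members in males, *Ces1d* (-0.42) and *Ces1f* (-0.27), and 4 in females, *Ces3b* (0.48), *Ces1g* (0.41), *Ces3a* (0.32) and *Ces1c* (0.19). The share of all genes at that p is not given here, and their median was 0.02 in males and 0.05 in females. None of the 11 alternatives, among which any probe repeats the main fit, called a member in either sex. *Ces3b* was the closest: *Pxr*-/- control females were at 12.68, 13.03 and 13.16 (lowest, median and highest) and ATB females at 13.36, 13.43 and 13.62, without overlap (adjusted p = 0.0785), as were 0.608% of all genes on the higher side. For *Ces2a*, the *Pxr*-/- groups differed by -0.22 in males (approximate 95% interval -0.43 to -0.00, limma's unadjusted p = 0.0516, adjusted p = 0.744). In females they differed by 0.04 (-0.16 to 0.24, adjusted p = 0.913). The intervals take the SE with the normal distribution and are slightly narrower than limma's test implies.

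Whether the ATB effect differed between genotypes was tested directly. No member passed, in males or females, under limma. For *Ces2a* in females, the genotype difference was larger with ATB than without by 0.60 ± 0.14 (unadjusted p = 0.000143, adjusted p = 0.442). In males it was larger by 0.26 ± 0.15 (adjusted p = 0.839). At an unadjusted p under 0.05 from limma, there were 3 members in females (*Ces2a*, *Ces3b* at 0.49 and *Ces1f* at 0.35) and 0 in males. The share of all genes at that p is not given here. In females 17175 of 21873 genes had a positive value, with a median of 0.13, so positive members also follow the array. Over all genes, 0 were called in females and 0.0183% in males. The genotype and ATB comparisons share groups of mice and are not independent of each other.

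**Figure D2:**
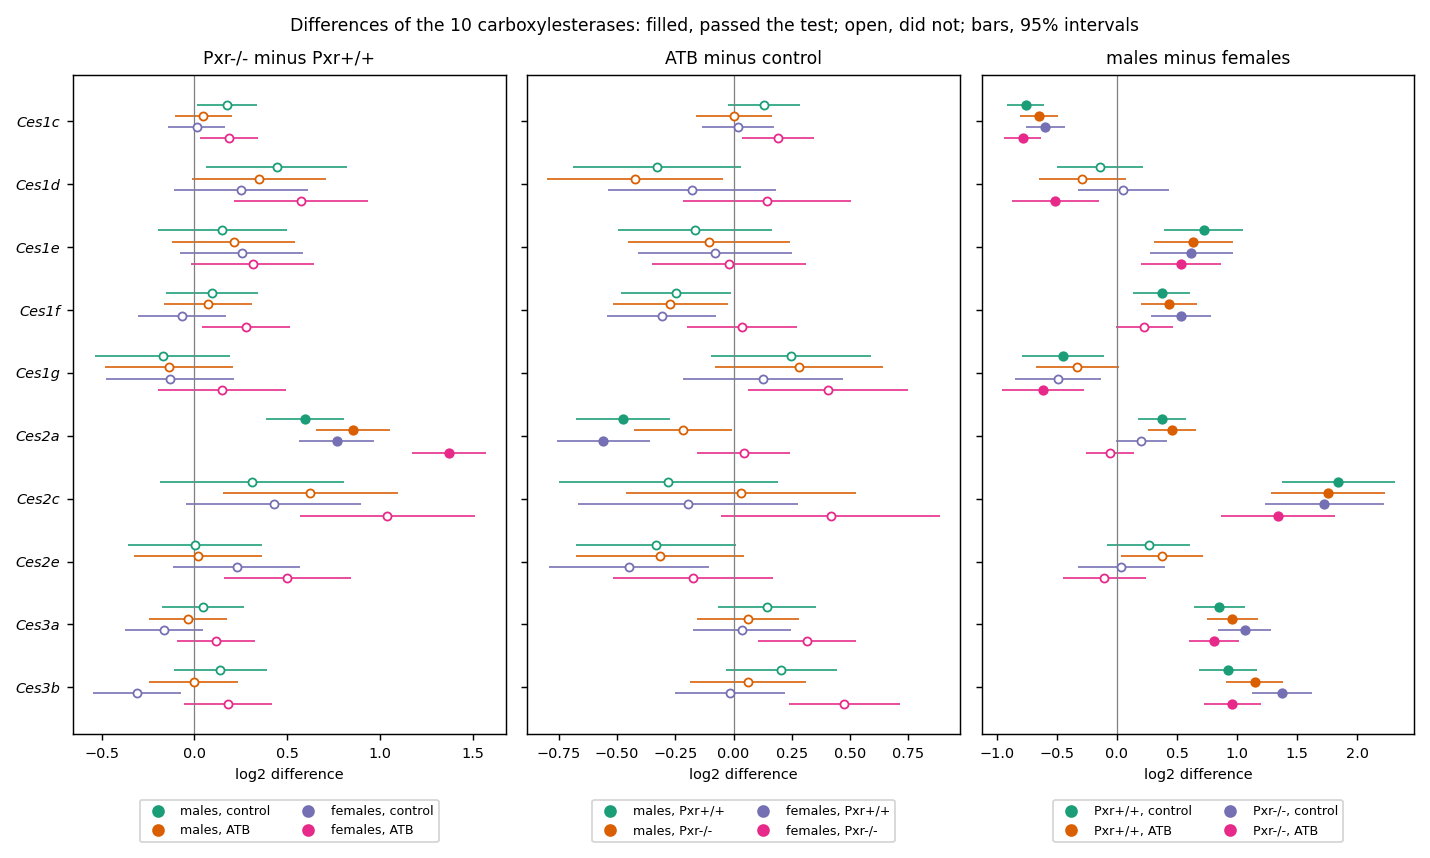
Log2 differences of the 10 members for *Pxr* genotype, ATB and sex (x axes), with approximate 95% intervals, from the SE and the normal distribution, as bars. Filled points passed limma's test and open points did not. *Ces2a* is filled in all 4 genotype comparisons, and the sex panel holds 28 of the 34 filled points.

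The third comparison was between the sexes. *Ces2c*, *Ces3a*, *Ces3b* and *Ces1e* were higher in males in all 4 pairs of groups, and *Ces1c* was higher in females in all 4. *Ces1f* and *Ces2a* were higher in males in 3 and 2 pairs, and *Ces1g* and *Ces1d* higher in females in 2 and 1. In *Pxr*+/+ control mice, 6 members were called higher in males and 2 lower, where 2.17% of all genes were called higher and 30% lower. In *Pxr*+/+ ATB mice, 6 and 1 were called (all genes 3.42% and 9.02%), in *Pxr*-/- control mice 5 and 1 (2.44% and 13.6%) and in *Pxr*-/- ATB mice 4 and 3 (2.52% and 23.3%). Males and females did not overlap for 4 members higher and 2 lower in *Pxr*+/+ control mice (1.07% and 16% of all genes) and for 4 and 1 in *Pxr*+/+ ATB mice (2.22% and 4.4%). The same held for 4 and 1 in *Pxr*-/- control mice (1.54% and 5.72%) and for 3 and 1 in *Pxr*-/- ATB mice (1.43% and 8.79%).

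The balance over all genes rests on the scaling. Of all calls, 6.8%, 27.5%, 15.2% and 9.8% were higher in males, in the same order, but 45.5%, 43.3%, 49.1% and 51.5% after quantile normalization, and the median of all probes was shifted by -0.20, -0.03, -0.12 and -0.18. Members called higher and lower after quantile normalization were 7 and 1, 6 and 1, 6 and 1, and 5 and 1. In *Pxr*+/+ control mice, where 30% of all genes were called lower in males, so were many markers of other cell types. They were 10 of 12 tested for macrophages, 4 of 7 for lymphocytes, 5 of 8 for endothelium and 6 of 8 for stellate cells. For cholangiocytes 0 of 6 were called lower, and for hepatocytes 1 of 11. These counts rest on the same scaling. The summed macrophage markers lay between 14.33 and 14.77 in these males and between 15.19 and 16.18 in the females. The median macrophage marker differed by -1.03 there and by -0.14 in *Pxr*-/- ATB mice. Their part in the sex differences was not tested.

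*Ces2c* had the widest range of group means of the 10 members, 2.38. In *Pxr*+/+ control mice its signal was 11.10, 11.74 and 12.28 (lowest, median and highest) in males and 9.20, 9.87 and 10.53 in females. In ATB mice of this genotype it was 11.26, 11.41 and 11.65 in males and 9.30, 9.57 and 10.08 in females. No male of these groups overlapped with a female, and the differences were 1.84 ± 0.24 or 3.58-fold (adjusted p = 1.3e-07) and 1.76 ± 0.24 (adjusted p = 4.32e-07). The 5 *Pxr*-/- control males were at 11.52, 11.66, 12.17, 12.29 and 12.44 and the females at 9.12, 10.40 and 10.97. In *Pxr*-/- ATB mice, *Ces2c* was at 11.55, 11.93 and 12.92 in males and at 10.19, 10.74 and 11.03 in females. These groups did not overlap either, and males were higher by 1.72 ± 0.25 (adjusted p = 1.95e-06) and 1.34 ± 0.24 (adjusted p = 5.21e-05).

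*Ces3a* and *Ces3b*, liver-expressed members of the Ces3 family, also separated the sexes in every mouse. Female medians of *Ces3a* were between 16.36 and 16.68 and male medians between 17.35 and 17.55. The differences were 0.85 and 0.96 in *Pxr*+/+ control and ATB mice and 1.06 and 0.81 in *Pxr*-/- control and ATB mice (SE 0.11, adjusted p = 1.88e-07 or less). Female medians of *Ces3b* were between 13.03 and 13.43, with a highest mouse at 13.92. Its male medians were between 14.19 and 14.46, with a lowest mouse at 14.03. The differences were 0.92, 1.15, 1.37 and 0.96 in the same order (adjusted p = 1.46e-07 or less).

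**Figure D3:**
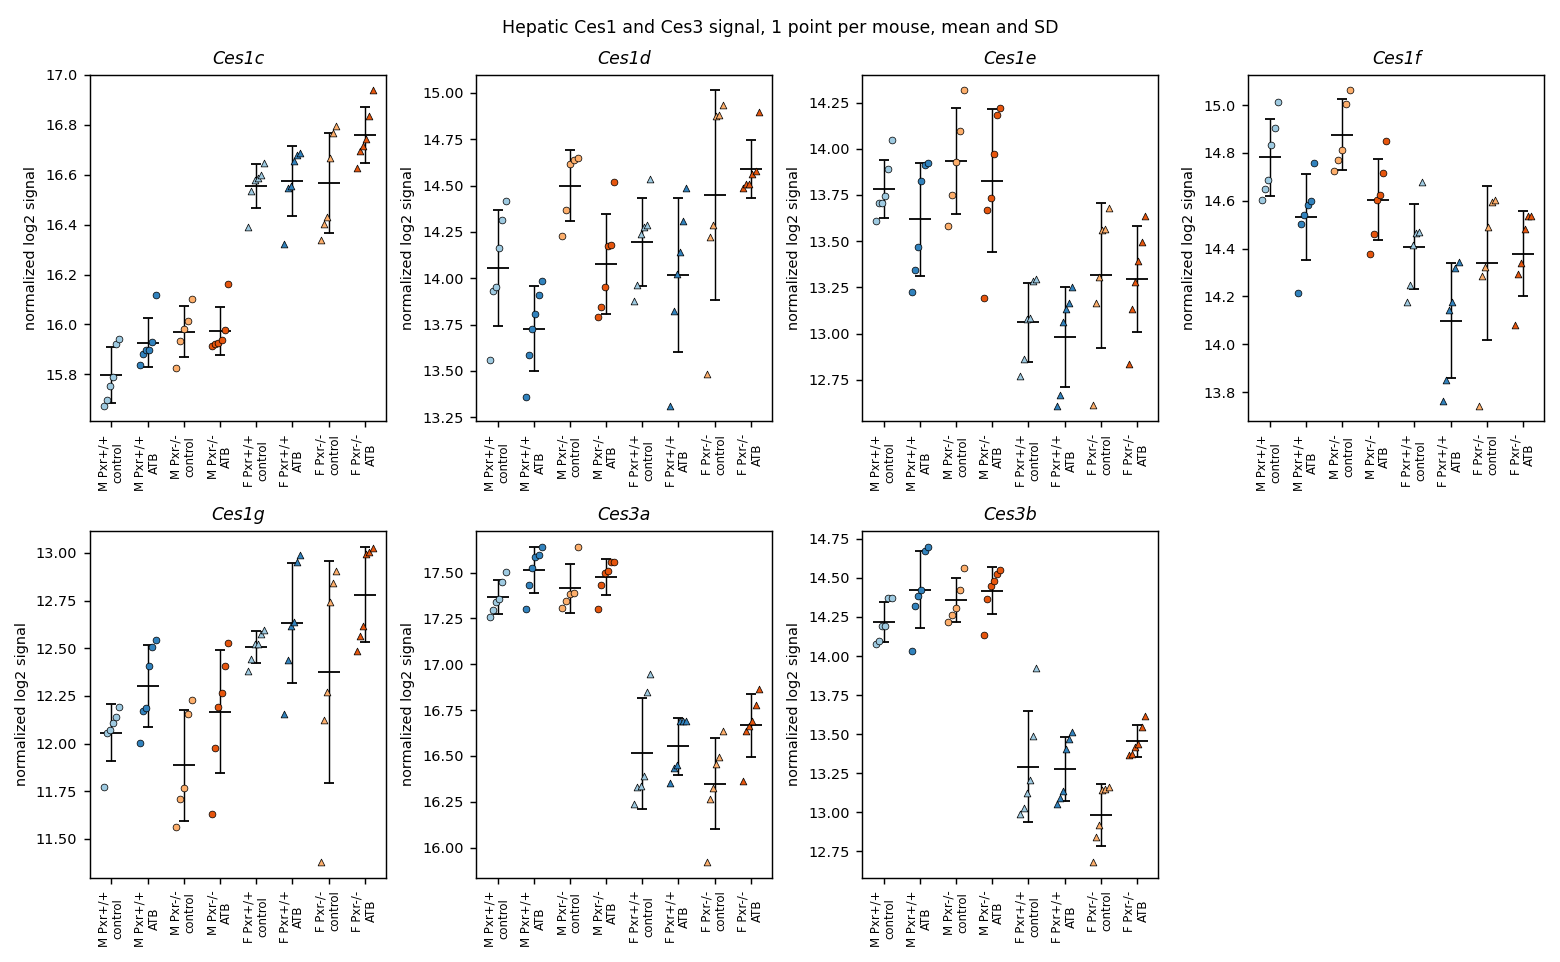
Normalized log2 signal of the Ces1 and Ces3 members in each mouse of the 8 groups (circles, males; triangles, females), with mean and SD as bars, n = 6 or 5 mice. *Ces3a* and *Ces3b* are higher in every male than in any female, and *Ces1c* is higher in every female than in any male.

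*Ces1c*, the esterase secreted into mouse plasma, was higher in females. In *Pxr*+/+ control mice its signal was 15.67, 15.77 and 15.94 (lowest, median and highest) in males and 16.39, 16.58 and 16.65 in females. The highest male of any group was at 16.16 and the lowest female at 16.32. Males were lower in all 4 pairs, with differences of -0.76, -0.65, -0.60 and -0.79 (SE 0.08, adjusted p = 7.01e-07 or less), and the smallest difference under any alternative was -0.41.

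*Ces1e*, known as egasyn, holds β-glucuronidase in the endoplasmic reticulum. In *Pxr*+/+ control mice it was at 13.61, 13.73 and 14.05 (lowest, median and highest) in males and at 12.77, 13.08 and 13.30 in females, without overlap. It was higher in males by 0.72, 0.64, 0.62 and 0.53 in *Pxr*+/+ control, *Pxr*+/+ ATB, *Pxr*-/- control and *Pxr*-/- ATB mice, with adjusted p of 0.00122, 0.00833, 0.0137 and 0.0168. The last call was lost without male replicate 2 (adjusted p = 0.059). The third was lost with only its own groups in the model (0.0778).

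*Ces1f*, a second triacylglycerol hydrolase, was higher in males by 0.37, 0.43 and 0.53 in the first 3 pairs (adjusted p = 0.0156, 0.0119 and 0.00261), the third call being lost with only its own groups in the model (adjusted p = 0.0632). In *Pxr*-/- ATB mice the difference was 0.23 (adjusted p = 0.148), and it passed under 4 of 11 alternatives. In *Pxr*-/- control mice the 5 males, from 14.73 to 15.06, all lay above the females, from 13.74 to 14.60.

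The remaining calls were weaker. *Ces1g*, a Ces1 enzyme with a part in hepatic lipid metabolism, was lower in males by 0.45 in *Pxr*+/+ control mice (adjusted p = 0.0436) and the call was kept in 2 of 12 fits that left out 1 mouse, those without male replicate 2 and without female replicate 3, with adjusted p up to 0.116 otherwise. It was also lost under 5 of 11 alternatives. In *Pxr*-/- ATB mice it differed by -0.62 (adjusted p = 0.00848) and in the other 2 pairs by -0.33 and -0.49 (adjusted p = 0.255 and 0.0643). *Ces1d* was lower in males in *Pxr*-/- ATB mice alone (-0.51 ± 0.18, adjusted p = 0.0336), and that call was lost under 5 of 11 alternatives and without male replicates 2, 3 or 6 or female replicate 6. *Ces2a* was higher in males by 0.37 and 0.46 in *Pxr*+/+ control and ATB mice (adjusted p = 0.00499 and 0.00144). In *Pxr*-/- mice it differed by 0.20 in control mice (adjusted p = 0.2) and by -0.06 in ATB mice (approximate 95% interval -0.26 to 0.14). The difference in *Pxr*-/- control mice passed under 4 of 11 alternatives, quantile normalization, the processed signal, normexp and the authors' values, which gave 0.28 to 0.40 (adjusted p = 0.00251 to 0.0323).

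Whether genotype or ATB effects differed between the sexes was tested in 4 further contrasts, and limma called no member in any. Members at an unadjusted p under 0.05 were *Ces2a* for genotype in ATB mice (-0.52 ± 0.14, adjusted p = 0.483) and *Ces3b* for genotype in control mice (0.45, adjusted p = 0.969). For ATB in *Pxr*-/- mice they were *Ces1d* (-0.56) and *Ces3b* (-0.42, adjusted p = 0.895 for both). The median of all genes was -0.13 for genotype in ATB mice, 0.08 in control mice and -0.04 for ATB in *Pxr*-/- mice. The share of all genes at that p is not given here. Between 0.00457% and 0.0274% of all genes were called in either direction of these contrasts, apart from 0 lower for ATB in *Pxr*-/- mice.

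The other carboxylesterases on the array were compared with the members. Of 10 listed, 7 were tested. *Ces2f* rose in *Pxr*-/- mice in 3 comparisons, by 0.71 in ATB males, 0.63 in control females and 1.07 in ATB females (adjusted p = 0.000771, 0.00457 and 4.75e-07). In control males it differed by 0.34 (adjusted p = 0.914), and with ATB in *Pxr*+/+ mice by -0.37 in males and -0.44 in females, neither called. *Ces2b* was higher in males by 1.47 to 1.86 and rose in *Pxr*-/- ATB females by 1.06 (adjusted p = 0.0331). *Ces1b* was lower in males in all 4 pairs, by -0.88 to -0.63, and *Ces4a* higher in all 4, by 0.70 to 1.06. The *Ces4a* probe was well above background in 5 or 6 males of each group but in only 1 or 2 of the 6 females, so these differences are against signals near background and may understate the change. *Ces2g* was lower in males in 3 pairs, *Ces1h* higher in 1, and *Ces1a* lower in *Pxr*-/- control females (-0.35, adjusted p = 0.0368), where its probe was well above background in 2 of 6 *Pxr*-/- and 6 of 6 *Pxr*+/+ mice. *Ces2h* and *Ces5a* were not well above background on any array.

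For each member whose group means spanned over 1 log2 unit, the genes closest in pattern were taken by the mean absolute distance of the 8 centred group means, over 21863 genes. *Ces2a* was closest to *Ces2f* (0.114), *Slc13a2* (0.155) and *Cyp3a25* (0.156), against a median of 0.509 over all genes. *Ces2c* was closest to *Ces2b* (0.0403), *Mup11* (0.0807) and *Mup5* (0.148), against a median of 0.901. The *Mup* genes encode major urinary proteins. *Ces2b* and *Ces2c* are the pair whose probes share the sequence shown above. *Ces3a* was closest to *Cyp2d11* (0.0619), *Hao1* (0.0686) and *Serpina3k* (0.0719), and *Ces3b* to *Serpina3j* (0.0715), *C2cd4d* (0.0764) and *Sult2a8* (0.0834). *Ces3a* and *Ces3b* lay 0.0897 from each other.

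**Figure D4:**
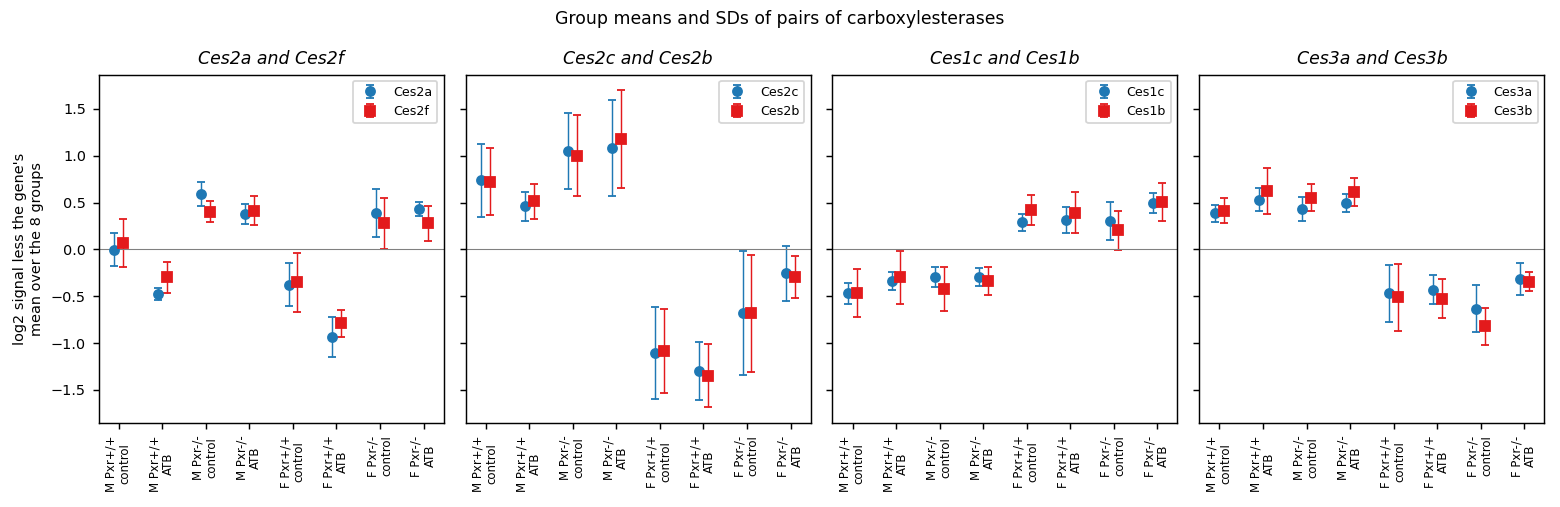
Group means and SDs (n = 6 or 5 mice) of 4 pairs of carboxylesterases over the 8 groups, each gene less its own mean of the group means (y axis, log2 signal). The mean absolute distance over the groups is 0.114 for *Ces2a* and *Ces2f*, 0.0403 for *Ces2c* and *Ces2b* and 0.0897 for *Ces3a* and *Ces3b*.

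Other hydrolases of lipids and xenobiotics were counted beside the members. Of 21 tested, 1 passed for genotype, *Bche* (butyrylcholinesterase), which fell in *Pxr*-/- ATB males (-0.67), and 1 for ATB, *Ephx1* (microsomal epoxide hydrolase), which fell in *Pxr*+/+ males (-0.70). Between the sexes, 2, 1, 1 and 1 were higher in males and 8, 4, 7 and 10 lower in *Pxr*+/+ control, *Pxr*+/+ ATB, *Pxr*-/- control and *Pxr*-/- ATB mice. In the same order, 2.17%, 3.42%, 2.44% and 2.52% of all genes were called higher in males, and 30%, 9.02%, 13.6% and 23.3% lower. *Ephx2* (soluble epoxide hydrolase) was higher in males in all 4 pairs, by 0.29 to 0.58. *Lipc* (hepatic lipase) was lower in all 4 (-0.69 to -0.43), as was *Bche* (-1.11 to -0.66). None of 8 genes of lipoprotein assembly and lipid droplets and none of 10 nuclear receptors and partners was called for genotype or ATB by limma. At an unadjusted p under 0.05, the lipid genes gave 6 of 32 tests for genotype and 2 of 32 for ATB, and the receptors 7 of 40 and 1 of 40. The share of all genes at that p is not given here, so these counts have no reference. Between the sexes, some were lower in males, as were 30%, 9.02%, 13.6% and 23.3% of all genes in the 4 pairs. Of the 10 receptors 4, 2, 3 and 5 were lower, with *Nr1i3*, the receptor CAR, at -1.04 to -0.53. Of the 8 lipid genes 2, 2, 1 and 5 were, with *Tm6sf2* down to -1.46 in *Pxr*-/- ATB mice. Several of these counts lie near the shares of all genes.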

How the data were processed

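The median signal of each spot, an intensity on a linear scale, was used as deposited by the authors, who read it with Agilent Feature Extraction 10.10.1.1 and subtracted nothing from it. The processed signal, a further deposited intensity, had background and a trend within the array removed. The authors' table of log2 values, filtered, corrected for the washing bath and normalized with CrossNorm, served as an alternative; their filter and stacking are not given in the sources used here. Here, log2 was taken, control and non-uniform spots left out, wash batch removed, and CrossNorm run over 300 draws (seed 1). Tested probes exceeded background clearly on 5 or more arrays of some group (32974 of 56605). Arrays correlated with the authors' values at 0.999 or more over 32791 probes. A gene was read from its brightest probe.

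limma 3.58.1 (R 4.3.3) fitted the 8 groups and wash batch over all 47 arrays. Tables and figures were made with pandas 2.3.3 and matplotlib 3.10.9. Benjamini-Hochberg adjustment ran over the 32974 tested probes, from which the 21873 genes were then read. The false discovery rate was 0.05 and the fold 1.2, and the scripts were tested on simulated data. Adjusted p-values in the text are limma's. p-values measure the spread between mice, whose cages are unknown. The precision is limited by the number of arrays.

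Named genes were all 10 members, the other carboxylesterases, the receptors and PXR checks, called genes of the other lists, and the 3 genes closest to each member whose group means span over 1 log2 unit. Members and lists were chosen with earlier results of these data known, and lists were written from general knowledge. Replicate numbers were checked as pairs: the 161 same-numbered pairs had a median correlation of -0.05 (-0.40 to 0.55), so they mark no pairs. Alternatives were quantile normalization, the processed signal, normexp (offset 50), the authors' values, no filter, all 47 arrays well above background, no wash batch, slide or replicate block, only the groups compared, any probe, and each array left out.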

Additional observations from a re-analysis of the deposited data

Results flagged for a closer look

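Of 80 sets of values, each 1 member in 1 group, 9 held a mouse that stood far from the others of its group. The rule flags about 1 in 20 sets of normal values. The 10 members were measured on the same mice, so the sets are not independent and 9 of 80 cannot be set against that rate. Control *Pxr*-/- female replicate 1 was the lowest for *Ces2a*, at 12.26 with the next mouse at 12.75, and for *Ces1f*, at 13.74 with the next at 14.29. This mouse was the lowest of its group in 7 of the 10 members. Among *Pxr*-/- control males, replicate 2 was the highest for *Ces2a* (13.17, next 12.94) and replicate 4 for *Ces3a* (17.64, next 17.39), the latter being the highest of its group in 9 members. Among ATB males, *Ces1c* was at 16.16 in *Pxr*-/- replicate 4 (next 15.98) and at 16.12 in *Pxr*+/+ replicate 2 (next 15.93). *Ces1d* was at 14.89 in *Pxr*-/- ATB female replicate 6 (next 14.58), the highest of its group in 9 members. Among *Pxr*+/+ control males, *Ces1g* was at 11.77 in replicate 6 (next 12.06) and *Ces2e* at 14.72 in replicate 5 (next 14.29).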

How the results depend on the processing

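Of 34 called differences, 33 had the same sign in all 3 wash batches; *Ces2a* between the sexes in *Pxr*+/+ control mice turned to -0.20 in batch 3, which held 1 mouse per group. For genotype in ATB females, the count of members called was 2 in place of 1 under quantile normalization, the processed signal, normexp, the authors' values, the slide block, the replicate block and only the groups compared, and 1 to 2 with 1 mouse left out, since *Ces2c* joined *Ces2a*. For ATB in *Pxr*+/+ males it was 2 under quantile normalization. For ATB in *Pxr*+/+ females it was 0 in place of 1 under the replicate block and with only the groups compared, and 0 to 1 with 1 mouse left out. Replicate numbers do not pair the mice. For each array, correlations with arrays of other groups were averaged by replicate number, and the array's own number was highest for 0 of 47. *Ces1g* was also called between the sexes in *Pxr*-/- control mice under the replicate block (-0.52, adjusted p = 0.0487) and the slide block (-0.51, adjusted p = 0.0401), and without female replicate 1 or 2 or male replicate 4. The sex calls of *Ces1d* and *Ces1g* were lost under quantile normalization, the processed signal and normexp. The causes were not tested. All member probes were well above background on all 47 arrays.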

Other observations

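Mice stood at the same end of their group in many members at once. *Pxr*+/+ ATB female replicate 5 was the lowest of its group in 8 of 10 members, and *Pxr*-/- control male replicate 5 the lowest in 7. *Pxr*-/- control female replicate 3 was the highest in 7. The 75th percentile of the signal was 346, 306 and 486 on these 3 arrays, each at the same end of its group. So it was for the mice highest in 9 members, *Pxr*-/- ATB female replicate 6 (448) and *Pxr*-/- control male replicate 4 (386). It was not for *Pxr*-/- control female replicate 1, lowest in 7 members, at 385 with a group median of 381.5. A link between the 2 was not tested.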
